A study of Homo sapiens with 6 samples.

Results

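DEAD and DEAH box helicases are enzymes that use ATP to unwind RNA duplexes or to displace proteins from RNA, and they are named after the amino acids of a conserved ATPase motif. DDX is the symbol stem of the DEAD box members and DHX that of the DEAH box members. They work in the nucleus, nucleolus and cytosol, in ribosome assembly, splicing, mRNA export, translation initiation and mRNA decay, and most are made on free ribosomes, without a signal peptide. Here their mRNAs were followed as possible RNA partners of AEG-1, the product of MTDH, a membrane protein of the endoplasmic reticulum.

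Members were all genes whose symbol in the site lists began with DDX or DHX and a digit, which gave 43 of the 8204 genes with a site in any library and 424 of 72385 sites. They comprised 29 DDX and 14 DHX genes, each on 1 RefSeq mRNA. In the RefSeq gene table, 54 protein-coding symbols follow the same pattern, and all 43 members were among them. The other 11 had no site in the files used here: DDX4, DDX25, DDX28, DDX31, DDX43, DDX53, DDX59, DDX60, DDX60L, DHX35 and DHX58. DDX4, DDX43 and DDX53 are known as germ line or testis genes, and DDX60, DDX60L and DHX58 belong to antiviral responses.

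All libraries came from 1 cell line, AEG-1-14, made from the hepatoblastoma line HepG3 and stably expressing AEG-1 with a C-terminal HA tag, so the controls carry the tagged protein too. In HITS-CLIP and PAR-CLIP, ultraviolet light bonds RNA to protein in cells (254 nm and 365 nm here), the protein is precipitated, and the RNA fragments that remain attached are sequenced. There were 2 HITS-CLIP AEG1 and 2 HITS-CLIP negative control libraries, and 1 PAR-CLIP AEG1 and 1 PAR-CLIP negative control library; the controls received no light. Each library was a list of called sites on mRNAs with a score by the authors, read as log2 from its values. No read counts were given, so read depth is unknown. Whether the HITS-CLIP replicates were grown apart is not in the labels, and any p-value measures the spread between these libraries alone, which may be technical. Of 7 mRNAs typical of liver cells that were looked up (ALB, AFP, APOA1, APOB, TTR, SERPINA1 and FGB), all 7 had sites in PAR-CLIP AEG1 and in both HITS-CLIP AEG1 libraries.

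Helicase mRNAs were recovered throughout by PAR-CLIP AEG1 and sparsely by HITS-CLIP AEG1. All 43 members had a PAR-CLIP AEG1 site, where 97.6% of all 8204 genes did, so this count does not set them apart. HITS-CLIP AEG1 replicate 1 held 6 sites on 6 members and replicate 2 held 8 sites on 7 members. That is 14% and 16.3% of members, where 22.7% and 20.7% of all genes had a site. No member had a site in any of the 3 negative controls, against 1.76% of all genes. The means were 6.5 ± 0.707 members (SD, n = 2) in HITS-CLIP AEG1 and 0 ± 0 (n = 2) in its control; the two-sided exact permutation test gave p = 0.333, the smallest that 2 against 2 libraries allow.

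The controls held too few sites to resolve these mRNAs. The HITS-CLIP controls held 60 and 90 sites in all, where 0 helicase sites allow a share of up to 5% and 3.33%. At the share seen in HITS-CLIP AEG1, 0.0698 and 0.105 helicase sites would have fallen there. The PAR-CLIP control held 121 sites, which allows up to 2.48%, and 0.826 helicase sites would have fallen there at the PAR-CLIP AEG1 share. A lower level in the controls was therefore not detectable at this depth.

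As a share of all sites, helicase sites were rarer in HITS-CLIP than in PAR-CLIP. They made up 0.0941% of the 6378 sites of HITS-CLIP AEG1 replicate 1 (exact Clopper-Pearson 95% interval 0.0345 to 0.205) and 0.142% of the 5651 sites of replicate 2 (0.0611 to 0.279). In PAR-CLIP AEG1 they were 410 of 60085 sites, or 0.682% (0.618 to 0.751). Both HITS-CLIP intervals lay below the PAR-CLIP interval. Intervals cover counting error only and take sites on 1 mRNA as independent, so they may be too narrow. The PAR-CLIP value comes from 1 library and has no replicate check. By genes the contrast was smaller. Members were 0.322% and 0.411% of the genes with a site in HITS-CLIP AEG1 replicates 1 and 2, and 0.537% in PAR-CLIP AEG1.

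Which members had HITS-CLIP sites differed between the replicates. A site in either replicate was present on 11 of 43 members (25.6%), close to the 27.3% of all genes. Sites in both replicates were present on 2 members (4.65%), DHX36 and DHX40, against 16.1% of all genes. Without sites of 25 nt or less, 10 members (23.3%) had a site in either replicate, against 22.4% of all genes, and 0 in both, against 13.5%. Thus members reached the general share of genes with a site in either replicate, while the calls in both replicates rested on short sites. Sites of 25 nt or less made up 65% and 67.8% of all sites in the 2 HITS-CLIP controls. In HITS-CLIP AEG1 replicates 1 and 2 they made up 6.8% and 7.01%, and 4 of the 14 helicase sites there were that short. Whether these short helicase sites are background was not tested. Among the 2888 genes with at least 8 PAR-CLIP sites, the members' median, 40.2% had a HITS-CLIP site in either replicate and 25.7% in both; for the 22 members among them the shares were 36.4% and 4.55%. No test was made of these differences, since genes are not replicates.

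**Figure D1:**
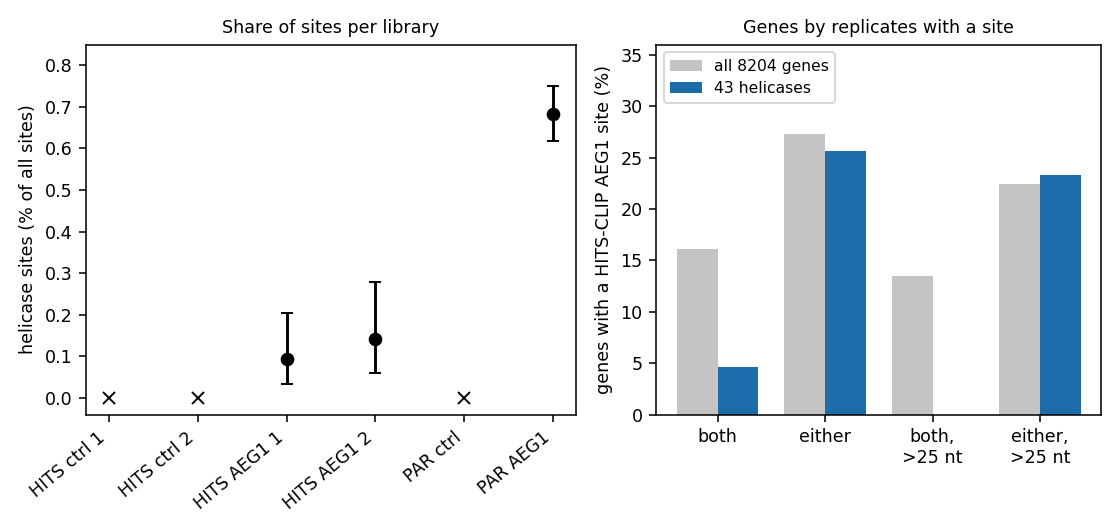
Left, helicase sites as a percentage of all sites in each of the 6 libraries, with exact 95% intervals for the AEG1 libraries. Crosses mark the 3 controls, at 0 sites. Their exact intervals are not drawn and reach 5.96% and 4.02% (HITS-CLIP) and 3% (PAR-CLIP), above every share shown. Right, the percentage of all 8204 genes and of the 43 helicase genes with a HITS-CLIP AEG1 site in both replicates or in either, for all sites and for sites over 25 nt. The helicase bar is near the other for either replicate and is lower for both, at 4.65% against 16.1%, and at 0 for sites over 25 nt.

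DHX36, which unwinds G-quadruplexes in RNA, had sites at 1 place in both replicates, over 25 nt wide in replicate 1 alone. Its site ran from nt 193 to 239 of the mRNA in replicate 1 (47 nt, score 6.28) and from nt 217 to 238 in replicate 2 (22 nt, score 4.28). The second lay inside the first. Both fell in a gap of the PAR-CLIP AEG1 sites, 80 and 100 nt from the nearest one, although DHX36 held 16 PAR-CLIP sites with a highest score of 6.28.

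DHX40, a less studied DEAH box protein, had short sites at 1 place in both replicates. They ran from nt 1969 to 1987 (19 nt, score 5.48) and from nt 1967 to 1987 (21 nt, score 5.56). The only PAR-CLIP AEG1 site of DHX40 was 720 and 718 nt away, at nt 1205 to 1248, with a score of 5.48. The RefSeq table lists a DHX40 pseudogene, so fragments may belong to either copy and the site is uncertain.

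The other 9 members with HITS-CLIP sites were seen in 1 replicate each. In replicate 1 these were DDX5, DDX17, DDX56 and DHX9, with 1 site each. In replicate 2 they were DDX3X, DDX23, DHX15 and DHX34 with 1 site each and DDX51 with 2. Of the 5 replicate 2 sites over 25 nt, 0 overlapped a replicate 1 site (exact 95% interval 0 to 52.2), against 72.2% of 5255 sites of that width over all genes. Of the 5 replicate 1 sites over 25 nt, 1, on DHX36, overlapped a replicate 2 site (20%; 0.505 to 71.6), against 64.1%, which lies inside that interval. Of all 6 replicate 1 sites, 2 overlapped a replicate 2 site (33.3%; exact 95% interval 4.33 to 77.7), against 63.2% over all genes, which lies inside that interval. Of the 8 replicate 2 sites, 2 overlapped one of replicate 1 (25%; 3.19 to 65.1), against 71.3%, which lies above it.

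**Figure D2:**
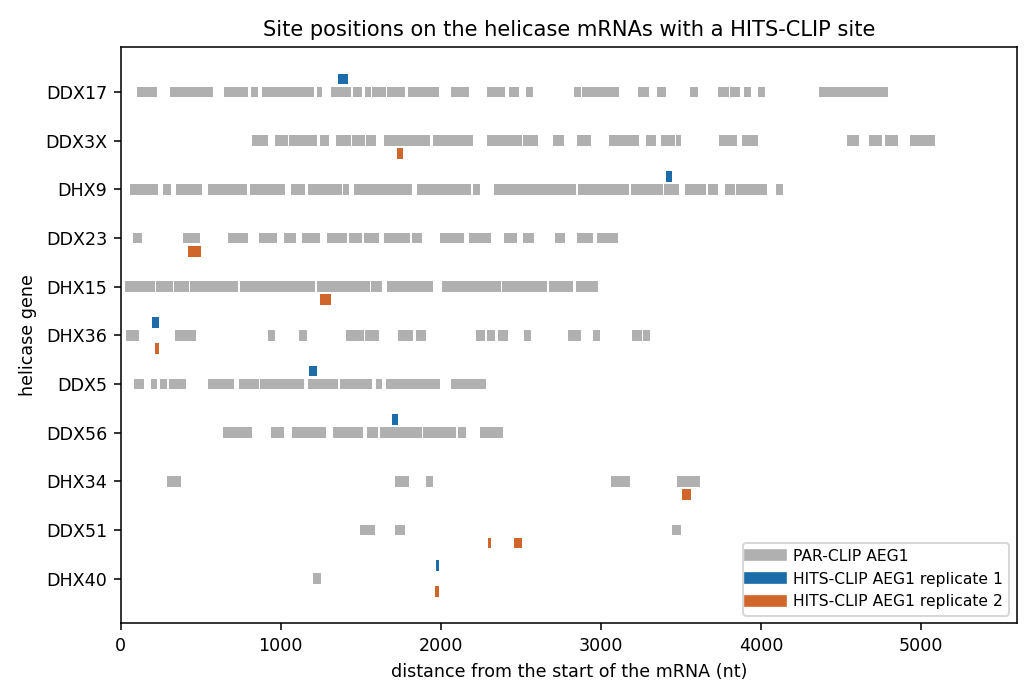
Positions of called sites on the 11 helicase mRNAs with a HITS-CLIP AEG1 site, in nt from the start of the mRNA, drawn to scale: PAR-CLIP AEG1 sites on the line, HITS-CLIP AEG1 replicate 1 above it and replicate 2 below. Most HITS-CLIP sites sit over a PAR-CLIP site, whereas those of DHX36, DHX40 and DDX51 sit between or beyond them.

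Where HITS-CLIP sites were over 25 nt wide they mostly overlapped PAR-CLIP sites. Of the 14 HITS-CLIP sites, 8 overlapped a PAR-CLIP AEG1 site by at least 1 nt (57.1%; exact 95% interval 28.9 to 82.3), against 90.3% of 12029 sites over all genes. The 10 sites over 25 nt gave 8 (80%; 44.4 to 97.5), against 93.8% over all genes, and the 4 shorter ones gave 0, against 43.7%. The 6 sites without PAR-CLIP cover were those of DHX36, DHX40 and DDX51. Of the 8 overlapping sites, 7 lay wholly inside the PAR-CLIP site. Apart from DHX34 (13%), PAR-CLIP sites covered 51.8% (DDX3X) to 92.7% (DHX15) of these mRNAs up to the furthest site. An overlap there does not show that the 2 methods marked the same place, since much of the mRNA was covered.

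The scores allow a comparison within an mRNA. The authors' score was read as log2 from its values, and the multiples given here rest on that reading. Taken out of the log and divided by that of the lowest-scoring site on the same mRNA, it came within 0.1 of a whole number for 311 of 424 helicase sites (73.3%). The lowest-scoring site of each mRNA, which gives 1 by definition, is counted among these. The score was therefore compared only between sites on 1 mRNA and not between genes. Whether it corrects for the size of a library cannot be read from this share, since 410 of the 424 sites came from PAR-CLIP AEG1. Read depth is unknown, and its part in score differences between libraries was not tested. On DHX15, which releases spliceosomes from excised introns, the replicate 2 site at nt 1246 to 1311 scored 5.13 and lay in a PAR-CLIP site of 328 nt (nt 1228 to 1555) that scored 8.22, a difference of 3.09. On DHX9, or RNA helicase A, the replicate 1 site at nt 3408 to 3446 scored 5.26 within a PAR-CLIP site that scored 7.97. On DDX3X, which aids translation of mRNAs with structured leaders, the replicate 2 site at nt 1724 to 1764 scored 5.36 within the highest-scoring PAR-CLIP site of that mRNA (nt 1643 to 1933, score 7.98).

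The paralogues DDX5 and DDX17, cofactors in transcription and splicing, each had 1 site in replicate 1. That of DDX5 (nt 1179 to 1227, score 3.16) lay in a PAR-CLIP site scoring 5.00, and that of DDX17 (nt 1361 to 1422, score 6.16) in one scoring 7.16. DDX56, a nucleolar helicase, had a site at nt 1693 to 1733 with a score of 7.33, against 7.82 for the PAR-CLIP site around it. DDX23, a component of the U5 snRNP, had an 81 nt site at nt 422 to 502 that scored 5.72 and shared 77 nt with a PAR-CLIP site scoring 5.73. These differences ranged from 0.00 on DDX23 to 1.85 on DDX5.

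DHX34, a factor of nonsense-mediated decay, was the exception in direction. Its replicate 2 site (nt 3509 to 3564) scored 9.58, above the 9.16 of the PAR-CLIP site around it, which tied to 2 decimals with another as the highest of the 5 on that mRNA. Over the 8 overlapping sites the PAR-CLIP score was higher by at least 0.49 for 6 and lower for DHX34, with a median difference of 1.43. For DDX23 the scores, 5.72 and 5.73, were nearly level, with a difference that rounds to 0.00. The PAR-CLIP site met was the highest-scoring of its mRNA for DDX3X and, with that tie, DHX34. No replicate repeats any of these pairs.

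**Figure D3:**
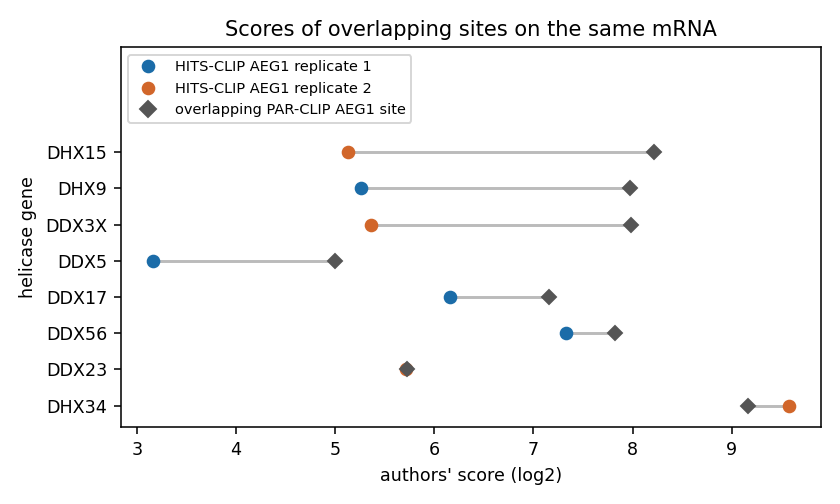
The authors' score, read as log2, of each HITS-CLIP AEG1 site that overlapped a PAR-CLIP AEG1 site (circles, coloured by replicate). Diamonds mark the score of that PAR-CLIP site, joined to the circle for each of 8 helicase mRNAs. Scores compare only along a line. The PAR-CLIP score is to the right for 6 mRNAs, by up to 3.09 on DHX15, nearly level for DDX23 and to the left for DHX34.

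DDX51, which acts in maturation of the large ribosomal subunit, had its 2 sites in replicate 2 away from its 3 PAR-CLIP sites. They ran from nt 2295 to 2315 (21 nt, score 9.03) and from nt 2460 to 2505 (46 nt, score 8.03), at least 517 nt from the nearest PAR-CLIP site. The higher score was close to the highest PAR-CLIP score on that mRNA, 9.11.

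The place of the HITS-CLIP score among all scores of an mRNA varied. Set against the lowest-scoring site on the same mRNA in any library, which can be the HITS-CLIP site itself, the 14 lay between 1 and 5.66 times that site. Those of DHX34, of DHX36 in replicate 1 and of DHX40 in both replicates reached or passed the highest PAR-CLIP score of their mRNA. For DHX40 that is the score of its only PAR-CLIP site. Those of DHX9 and DHX15 lay 4.81 and 4.13 below the highest PAR-CLIP score. Compared by the highest score per mRNA, PAR-CLIP exceeded HITS-CLIP by a median of 1.77 over the 11 members with both, beside 1.66 over the 2050 genes with both, which is close to it. With only sites at or above their library's median score, a filter that ranks sites across genes, the members' difference was 0.08. Few members underlie that value, since HITS-CLIP AEG1 then exceeded its control by a mean of 1.5 members. When the median score of each mRNA's sites was used in place of the highest, with all sites kept, the members' difference was -0.32.

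**Figure D4:**
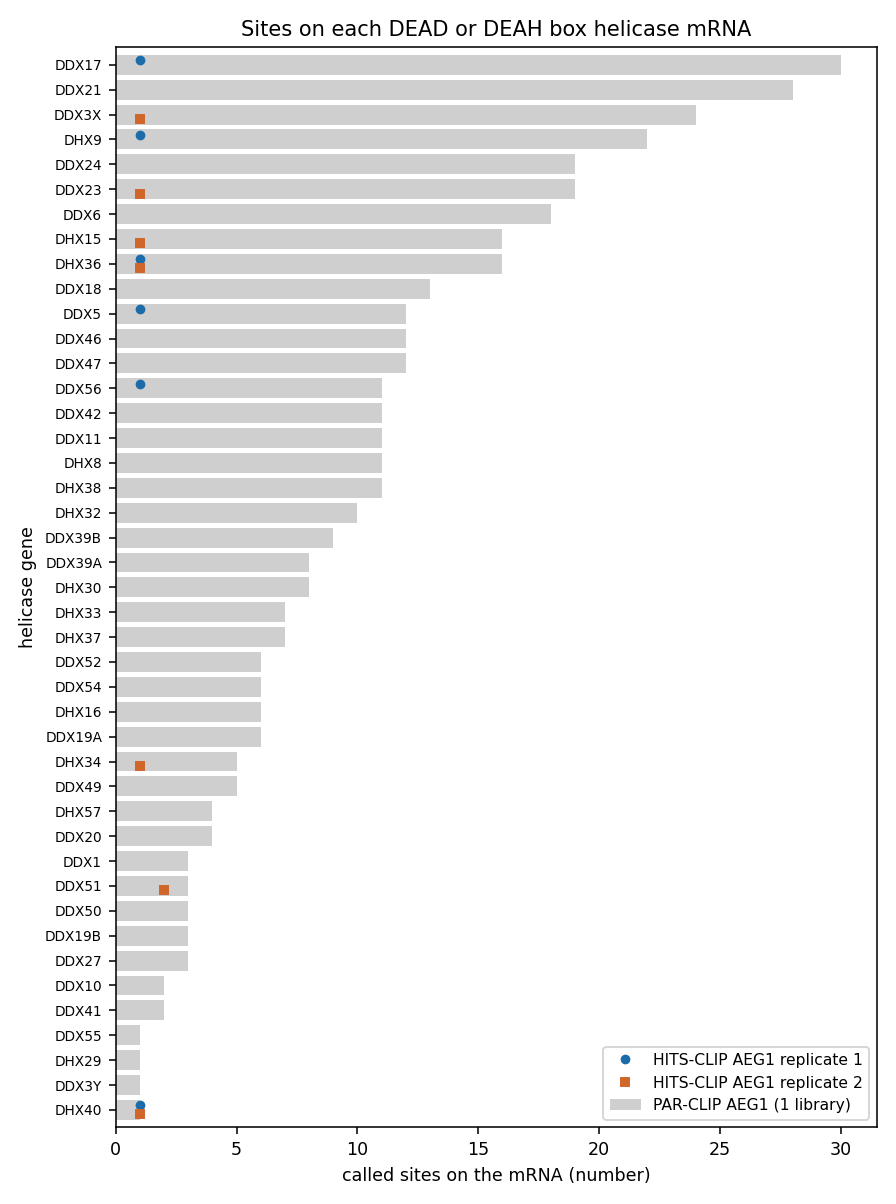
Number of called sites on each of the 43 helicase mRNAs in PAR-CLIP AEG1 (bars, 1 library) and in HITS-CLIP AEG1 where a replicate had a site (circle, replicate 1; square, replicate 2). PAR-CLIP counts run from 1 to 30, while no mRNA has more than 2 HITS-CLIP sites in a library.

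In PAR-CLIP AEG1 the members held 1 to 30 sites, with a median of 8, beside a median of 5 over all 8009 genes with PAR-CLIP sites. The 10 leading members held 205 of the 410 sites (50%). At least 10 sites were present on 19 members (44.2%), where 27.3% of all genes had as many, and at least 20 on 4 members (9.3%), where 7.02% did. Per length the members resembled other mRNAs. The furthest site end, the only measure of length in the files, had a median of 2981 nt for members and 2053 nt for all genes. Sites covered a median of 22.6% of that length in both sets, and their number per 1000 nt had medians of 3.06 and 2.92. That length comes from the same sites, so it is a lower limit of the mRNA's length.

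Helicases of splicing and mRNA export included the member with most sites. DDX17 held 30 PAR-CLIP sites covering 3008 nt, a number that 2.01% of genes with PAR-CLIP sites reached, and its highest-scoring site was also its widest (434 nt, nt 4363 to 4796, score 8.64). DDX5 held 12 sites that covered 1790 nt, or 78.4% of the length up to the furthest site. DDX23 held 19 sites over 1852 nt, and DHX15 held 16 that covered 92.7% of the length, the highest share among members. DDX39A and DDX39B, which load mRNA for export, held 8 and 9 sites that covered 77.2% and 62.8%. The 15 members of this list had a median of 11 PAR-CLIP sites, beside 5 over all genes with such sites. On this list, 4 members (DDX5, DDX17, DDX23 and DHX15) had a HITS-CLIP site in either replicate. The share was 27.3% over all genes and 40.2% over genes with at least 8 PAR-CLIP sites. Differences between this list and those below were not tested.

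The remaining spliceosomal helicases were covered more thinly. DDX46, which acts on the U2 snRNP, held 12 sites over 23.7% of the length, DDX42 11 over 22.9%, DHX8 11 over 26.2%, DHX38 11 over 17.3% and DHX16 6 over 12.4%. None of these 5 had a HITS-CLIP site. DDX20, part of the SMN complex, held 4 PAR-CLIP sites, and DDX41 held 2.

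Helicases of translation and of messenger ribonucleoproteins included the mRNA with the greatest covered length. DHX9 held 22 PAR-CLIP sites that covered 3583 nt, or 86.5% of the length, and one of them spanned 518 nt (nt 2330 to 2847) with the highest score of the mRNA, 10.08, which is 56 times the level of its lowest-scoring PAR-CLIP site. DDX3X held 24 sites covering 2636 nt. DDX6, which represses mRNAs and promotes their decapping in P-bodies, held 18 sites over 1429 nt and no HITS-CLIP site. DHX36 held 16, DHX34 5, DDX1 3 and DHX29, a ribosome-scanning factor, 1 (nt 3487 to 3555, score 7.54). The 8 members of this list had a median of 10.5 PAR-CLIP sites, beside 5 over all genes with such sites. On this list, 4 members (DDX3X, DHX9, DHX34 and DHX36) had a HITS-CLIP site in either replicate. The share was 27.3% over all genes and 40.2% over genes with at least 8 PAR-CLIP sites.

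Helicases of ribosome assembly ranged from 1 to 28 PAR-CLIP sites. DDX21, which acts in ribosomal RNA transcription and processing, held 28 PAR-CLIP sites over 2350 nt, and DDX24 held 19 that covered 78.3% of the length. DDX18 held 13, DDX47 12 and DDX56 11, with 32.2%, 52.4% and 57.7% covered. The others of the 15 held 1 to 7: DHX33 and DHX37 had 7, DDX52 and DDX54 6, DDX49 5, DDX27, DDX50 and DDX51 3, DDX10 2 and DDX55 1. The list's median was 6 sites, beside 5 over all genes with PAR-CLIP sites. A HITS-CLIP site was present on 2 members (DDX51 and DDX56), each in 1 replicate, where 27.3% of all genes had one in either replicate.

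Among the others, DHX30, a helicase of the mitochondrial ribosome, held 8 PAR-CLIP sites and no HITS-CLIP site. DDX11, a DNA helicase of sister chromatid cohesion, held 11 sites with scores between 5.80 and 7.38, a range of 3 times; its near-identical pseudogene DDX12P makes it uncertain. DHX32 held 10 sites and DHX57 4. By stem, the 29 DDX members had a median of 8 PAR-CLIP sites covering 23.7% of the length, and the 14 DHX members 7.5 covering 14.4%. HITS-CLIP sites in either replicate were present on 6 of the 29 DDX and 5 of the 14 DHX members, where 27.3% of all genes had one.

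**Figure D5:**
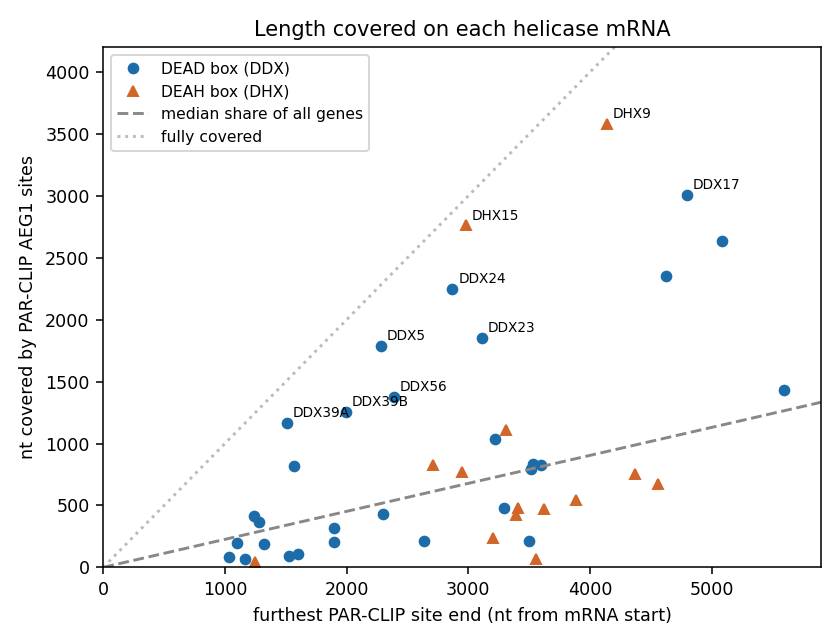
Length covered by PAR-CLIP AEG1 sites against the furthest site end, in nt, for 29 DDX (circles) and 14 DHX (triangles) mRNAs; the dashed line is the median covered share of all genes, 22.6%, and the dotted line full coverage. DHX15 and DHX9 lie closest to full coverage, at 92.7% and 86.5%, and members lie on both sides of the dashed line.

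The 11 members with a HITS-CLIP site had a median of 16 PAR-CLIP sites and the 32 without one 6.5. The order was loose. DDX21, DDX24 and DDX6, with 28, 19 and 18 PAR-CLIP sites, had no HITS-CLIP site, whereas DHX40 had 1 PAR-CLIP site and a HITS-CLIP site in each replicate. Site widths resembled those of other mRNAs, with a median of 74.5 nt over the 410 PAR-CLIP sites and 73 nt over all 60085, and sites of 200 nt or more made up 7.32% and 5.96%.

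Paralogues share sequence, so some sites may belong to either copy. DDX19A and DDX19B, close copies of an mRNA export helicase, held 6 and 3 PAR-CLIP sites, and 5 of the 6 boundaries of the DDX19B sites coincided with DDX19A boundaries at a constant offset of 32 nt. Values of this pair are therefore not independent. For DDX5 with DDX17, DDX39A with DDX39B, DDX21 with DDX50, DHX8 with DHX38 and DDX23 with DDX46, no offset matched more than 3 boundaries. DDX3Y had 1 PAR-CLIP site (nt 1096 to 1162), and as a close copy of DDX3X it is uncertain. The RefSeq table lists pseudogenes for 11 members, among them DDX18 with 6, whose sites could hold fragments of either.

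Other RNA helicases and partners are given beside the share of all genes with a HITS-CLIP site in either replicate, 27.3%, and with a PAR-CLIP site, 97.6%. Of 17 RNA helicases without a DDX or DHX symbol that had a site, all 17 had PAR-CLIP sites (median 10) and 2 had a HITS-CLIP site. EIF4A1, the DEAD box helicase of cap-dependent initiation, held 4 and 3 HITS-CLIP sites, all over 25 nt, and 5 PAR-CLIP sites, while EIF4A2 and EIF4A3 held 0 in HITS-CLIP and 10 each in PAR-CLIP. SNRNP200, the helicase that unwinds U4 from U6, held 1 and 0 HITS-CLIP sites and 42 in PAR-CLIP, and UPF1, of nonsense-mediated decay, 0 and 35. Of 16 G-patch cofactors of DEAH helicases, AGGF1 had a HITS-CLIP site in both replicates and SUGP2 in 1. Of 11 decapping and silencing partners of DDX6, PATL1 had 1 in both and LSM14A in 1; AGGF1 and PATL1 also had a site in a negative control.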

How the data were processed

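The tool named in the submitters' processing notes is Bowtie, with neither version nor role. Its reference, the site caller, the threshold and the treatment of reads matching several transcripts were not given in the sources used here. Deposited files list sites per library by RefSeq mRNA, symbol, start, end and a score. This score was read as log2 from its values, and how the authors normalized it is unknown here. Starts were taken as 0-based and are printed 1-based. No genome coordinates or mRNA sequences were used.

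Sites were counted by the symbol in the files; RefSeq symbols (GRCh38.p14) were the same for all 43 members. Sites overlapped when they shared at least 1 nt. Shares carry exact Clopper-Pearson 95% intervals; a count of 0 allows up to 3 counts of the total. HITS-CLIP AEG1 was compared with its control by a two-sided exact permutation test over libraries. Overlap and counting steps were tested on simulated data. Python 3.11.15, pandas 2.3.3 and scipy 1.17.1 were used.

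Members described in full are those with a HITS-CLIP AEG1 site or among the 10 with most PAR-CLIP sites. The members, role lists and partner lists were chosen with earlier results of these data known. Alternatives covered short sites, scores, overlap, symbols, single replicates and a replicate block.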

Additional observations from a re-analysis of the deposited data

How the results depend on the processing

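Of 48 alternative calculations, 32 left their result in place, 15 moved it and 1 reversed it. This tally is not a measure of how firm the results are. Differences from the HITS-CLIP control counted as in place whenever above 0, and that control held 0 helicase sites. With sites at or above their library's median score these differences fell from 6.5 members and 7 sites to 1.5 and 2. Updated symbols added 0 and removed 0 helicase sites, so they could not move any result. The count of helicases with a site in both HITS-CLIP AEG1 replicates, 2, was 0 with sites over 25 nt alone, 0 with sites at or above their library's median score and 0 with at least 2 sites per gene in each replicate; it was 11 for either replicate and 6 to 7 with 1 replicate left out. The share of replicate 1 sites that overlapped replicate 2, 33.3%, was 0% with sites over 25 nt alone in both replicates, 20% where replicate 1 alone was so restricted, and 0% with higher-scoring sites. With higher-scoring sites, 26 members had a PAR-CLIP site and their median number of sites was 4; the median covered length, another unit, was 670 nt. When an overlap had to cover 50% of each site, 7.14% of HITS-CLIP sites met a PAR-CLIP site, since 7 of the 8 overlapping sites lay inside wider PAR-CLIP sites. The median difference of highest scores, 1.77, was 2.13 with sites over 25 nt, 0.08 with higher-scoring sites, 1.74 to 2.13 with 1 replicate left out, and -0.32, a reversal, with the median score of each mRNA; the cause was not tested. Pairing of replicate numbers as a replicate block gave the same mean differences of 6.5 members and 7 sites, with an exact sign-flip p of 0.5, the smallest that 2 pairs allow. Read depth is unknown, and 6 and 8 sites limit every HITS-CLIP share.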
